A study of Mus musculus with 2 samples.

Results

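Notch signalling was followed through 10 genes in nuclei of the embryonic mouse neocortex: the receptors Notch1, Notch2 and Notch3, the ligands Dll1, Dll3 and Jag1, and the transcription factors Hes1, Hes5, Hes6 and Hey1. They were chosen by symbol, and all 10 were found on 1 line each among the 33938 genes of the deposited tables. The study holds 2 single-nucleus RNA libraries, 1 with the genotype label MEN1-F/F and 1 with the genotype label MEN1-NCKO, called here the F/F and the NCKO library. Men1 encodes menin, a scaffold protein of histone methyltransferase complexes. Both labels name Men1. The sources used here do not give what F/F and NCKO stand for, the driver of any deletion, the part of the gene targeted, the mouse strain, the embryonic age or the number of embryos pooled. Each label has 1 library, so no replicate spread could be measured, no test was run, and each difference below compares these libraries and not the genotypes.

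Notch receptors are activated by ligands on a neighbouring cell. The freed intracellular domain then joins the DNA-binding protein Rbpj and Maml coactivators to switch on Hes and Hey repressors. In the embryonic cortex Hes1 and Hes5 hold radial glia, the neural stem cells, in the progenitor state by repressing proneural genes, and the proneural factors in turn raise the ligand Dll1 in cells that leave that state. Dll3 lacks the ability to activate receptors on neighbours and acts within the cell that makes it, Jag1 is a second class of activating ligand, and Hes6 counteracts Hes1 and favours neuronal differentiation.

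The promoter windows of Hes5 and Hes6 are shown first because these genes carry opposite roles and had different distributions over the nuclei. Each is the 250 bases before a transcription start in RefSeq (GRCm38.p6), written 5′ to 3′ on the gene's strand. Hes5 lies on the plus strand at chr4:154960673-154960922 and Hes6 on the minus strand at chr1:91414039-91414288. Capitals mark TGGGAA, the core letters of the Rbpj motif, on either strand (TTCCCA on the other).
Hes5: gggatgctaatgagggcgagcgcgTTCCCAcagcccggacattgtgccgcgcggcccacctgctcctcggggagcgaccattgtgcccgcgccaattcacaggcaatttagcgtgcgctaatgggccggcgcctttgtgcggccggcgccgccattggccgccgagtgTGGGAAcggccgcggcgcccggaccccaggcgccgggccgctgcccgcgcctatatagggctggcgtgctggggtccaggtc
Hes6: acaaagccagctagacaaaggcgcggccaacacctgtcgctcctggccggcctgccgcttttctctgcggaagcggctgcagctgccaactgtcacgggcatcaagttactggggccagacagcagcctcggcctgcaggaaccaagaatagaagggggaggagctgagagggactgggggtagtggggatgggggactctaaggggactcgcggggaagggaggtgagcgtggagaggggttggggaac
The Hes5 window held 2 matches, which began 226 and 82 bases before the start (positions -226 on the minus strand and -82 on the plus strand), and the Hes6 window held 0. Of the 10 genes, 8 had an entry (Hes1 and Hey1 did not), with 10 windows in all, and 1 of these windows held TGGGAA. The letters occurred in 21.6% of 32851 windows of the same length over all genes. A second motif, CACNAG on either strand, the N box bound by Hes proteins, was in 4 of the 10 windows (those of Notch1, Notch2, Notch3 and another Hes6 start, and not in Hes5) against 36.7% of all windows. A match describes the letters and not a bound site.

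After filtering, 6130 F/F and 9807 NCKO nuclei remained, with 26831125 and 41227801 UMIs (unique molecular identifiers, which count RNA molecules) and medians of 3663.5 and 3580 UMIs per nucleus. The libraries shared 15 barcodes. Levels below are in CPM, the usual unit scaled to depth, here to the summed UMIs of a class in a library. Men1 itself gave 21 UMIs (23.0 CPM) in F/F and 11 (7.99 CPM) in NCKO radial glia-like nuclei, but 10.3 and 13.5 CPM over all nuclei. These 3' counts therefore do not check the label, since the targeted part is not known. Clusters were named from marker genes after all Notch genes had been left out of the clustering, and 33 of 43 clusters fell into 19 named classes. Each of the 3 radial glia-like clusters had 10 of 10 radial glia markers raised at least 1.5-fold, and the class held 304 F/F and 511 NCKO nuclei. Astrocyte was the second name of each by the mean log2 excess of its markers over the other clusters. The radial glia and astrocyte scores were 2.476 and 2.149 in cluster 13, and 1.857 and 1.627 in cluster 16. In cluster 37 they were 2.323 and 1.145, so clusters 13 and 16 lay close to both names. The intermediate progenitor-like class held 177 and 112 nuclei. Ganglionic eminence and striatal classes were present although the labels name neocortex.

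Ranges after a level are its exact 95% Poisson interval. Levels are compared only within a gene, because 3' counts and gene features differ between genes. Intervals cover counting error only.

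Receptor levels in radial glia-like and astrocyte-like nuclei were above those of the neuron-like classes, and some vessel, meningeal and other classes reached like or higher levels. Notch1 stood at 182 CPM (155 to 212) in F/F and 155 CPM (135 to 178) in NCKO radial glia-like nuclei, and at 194 and 197 CPM in astrocyte-like nuclei. It was also found in the other dividing or precursor classes, at 116 CPM (F/F) and 110.3 CPM (NCKO) in ganglionic eminence progenitor-like, 88.3 and 75.7 in intermediate progenitor-like, and 103 and 50.1 in oligodendrocyte precursor-like nuclei. In the NCKO library its highest level was in endothelial-like nuclei, at 219 CPM (153 to 305), where Notch1 has a known role in vessel growth. The F/F library held 3 endothelial-like nuclei and gives no usable value there. Upper-layer neuron-like nuclei had 13 F/F and 5 NCKO Notch1 UMIs in all.

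Notch2 followed the glial classes more closely than the precursor classes. It reached 547 and 462 CPM in astrocyte-like nuclei and 417 CPM (376 to 461) and 367 CPM (335 to 400.2) in radial glia-like nuclei, and it was lower, at 45.3 CPM and 72.4 CPM, among the intermediate progenitor-like nuclei. Meningeal fibroblast-like nuclei held 565 and 439 CPM. In the NCKO order the first 3 classes, astrocyte-like, meningeal fibroblast-like and radial glia-like, overlapped in their intervals, and the next class lay below them.

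Notch3, the receptor required in the smooth muscle and pericytes of vessels, was highest in mural cell-like nuclei at 1318 CPM (1042 to 1645) from 18 F/F nuclei and 957 CPM (761 to 1188) from 33 NCKO nuclei. All 18 F/F and 29 of the NCKO mural cell-like nuclei had a Notch3 UMI. It was next highest in astrocyte-like (262 and 201 CPM) and radial glia-like nuclei (182 and 170 CPM). Intermediate progenitor-like nuclei had 4 and 3 Notch3 UMIs, at 9.06 and 9.88 CPM. Notch1 thus extended into the intermediate and ganglionic eminence progenitor-like classes, where Notch3 gave 3 to 6 UMIs per library.

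**Figure D1:**
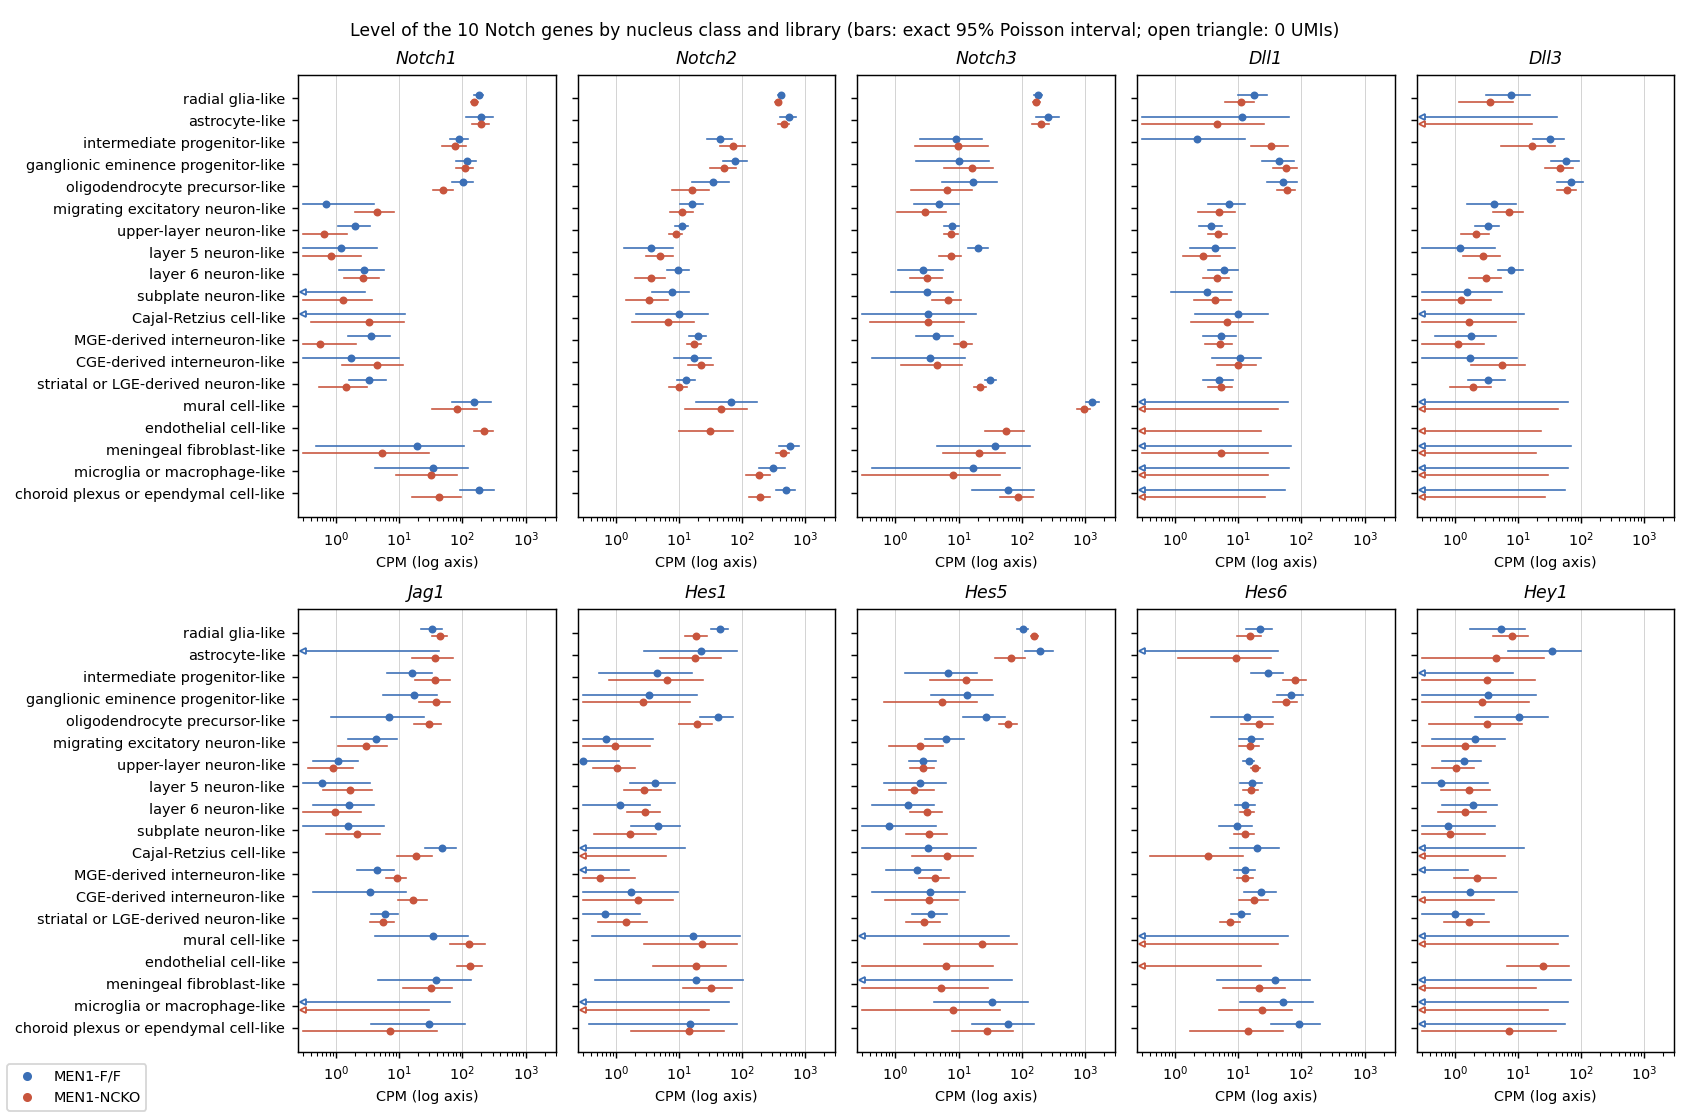
Level of each gene in CPM (horizontal log axis) by nucleus class (rows), with F/F in blue and NCKO in red and bars for the exact 95% Poisson interval. Values with 0 UMIs are open triangles at the left edge, intervals are drawn from 0.3 CPM upwards and classes with fewer than 15 nuclei in a library are left out; Notch3 peaks in the mural cell-like row, Dll1 and Dll3 peak in the oligodendrocyte precursor-like row in both libraries, and Hes1 and Hes5 lie above the neuron rows in radial glia-like nuclei.

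The Delta-like ligands were highest in other classes than the receptors. Dll1 was highest in oligodendrocyte precursor-like nuclei, at 51.3 CPM (28.7 to 84.7) in F/F and 58.2 CPM (40.8 to 80.6) in NCKO, followed by ganglionic eminence progenitor-like nuclei at 44.4 and 56.5 CPM. In radial glia-like nuclei it stood at 17.5 CPM (16 UMIs) and 10.9 CPM (15 UMIs). Dll3 had the same first and second class, with 68.5 and 59.9 CPM in oligodendrocyte precursor-like and 58.1 and 45.8 CPM in ganglionic eminence progenitor-like nuclei. Its next class was intermediate progenitor-like, with 31.7 CPM in F/F and 16.5 CPM in NCKO. The leading pair of classes overlapped in their intervals for both genes. Dll3 was at 7.66 and 3.63 CPM in radial glia-like nuclei and gave 0 UMIs in astrocyte-like nuclei of both libraries, where the floor of 3 UMIs is 34.2 and 13.7 CPM.

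Jag1 was distributed in another way. In NCKO nuclei it was highest in endothelial-like (132 CPM, 81.4 to 201) and mural cell-like nuclei (128 CPM, 64.1 to 230), both apart from radial glia-like nuclei at 43.6 CPM (33.3 to 56.1). In F/F nuclei the Cajal-Retzius cell-like class led with 46.7 CPM (25.6 to 78.4) from 14 UMIs, overlapping radial glia-like nuclei at 32.9 CPM (22.2 to 46.9). The NCKO Cajal-Retzius cell-like nuclei stood at 18.3 CPM from 11 UMIs, a ratio of NCKO over F/F of 0.393 (0.161 to 0.931). The ratio went the other way in CGE-derived interneuron-like nuclei (2 and 15 UMIs, 4.79, 1.11 to 43.2) and in oligodendrocyte precursor-like nuclei (2 and 18 UMIs, 4.25, 1.02 to 37.8). Over all kept nuclei Jag1 stood at 4.99 CPM (4.18 to 5.92) in F/F and 6.86 CPM (6.09 to 7.71) in NCKO.

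Among the targets, Hes5 was highest in astrocyte-like F/F nuclei (194 CPM, 113 to 310.2), whose interval overlapped that of radial glia-like nuclei (104 CPM, 84.2 to 127). In NCKO nuclei the radial glia-like class led at 159 CPM (139 to 182), above astrocyte-like nuclei at 68.6 CPM (38.4 to 113). Hes1 was lower in counts, with 44.9 CPM (F/F) and 18.9 CPM (NCKO) among radial glia-like nuclei and 41.1 and 19.4 CPM among oligodendrocyte precursor-like nuclei. Upper-layer neuron-like nuclei held 2.76 and 2.70 CPM of Hes5 and 0.307 and 1.03 CPM of Hes1.

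Hes6 did not follow Hes1 and Hes5. It stood at 68.3 CPM (F/F) and 56.5 CPM (NCKO) in the ganglionic eminence progenitor-like class and at 29.4 and 79.0 CPM in the intermediate progenitor-like class. Radial glia-like nuclei held 21.9 CPM (13.4 to 33.8) and 15.3 CPM (9.44 to 23.3), and upper-layer neuron-like nuclei 14.7 and 18.7 CPM. Hes6 was thus found at a like level in radial glia-like and neuron-like nuclei, the only one of the 10 genes that was not higher in radial glia-like than in upper-layer neuron-like nuclei in both libraries. Of the 9 genes with at least 50 UMIs over both classes, 8 were higher in radial glia-like nuclei in both libraries, against 54.3% of 13193 genes at the same minimum. Hey1 was sparse, with 5 and 11 UMIs in radial glia-like nuclei, and in the NCKO library its highest level was 25.1 CPM (4 UMIs) in endothelial-like nuclei.

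Receptor, ligand and target were also read in single nuclei. A UMI of any of Notch1 to Notch3 was present in 87.8% of F/F and 79.1% of NCKO radial glia-like nuclei, at medians of 2635 and 2311 UMIs per nucleus. In upper-layer neuron-like nuclei, which serve as the background for free RNA, the share was 8.16% and 6.89% at higher medians of 3884.5 and 3785 UMIs. Dll1 or Dll3 was seen in 4.61% and 2.94% of radial glia-like nuclei, near the 2.93% and 3.05% of the deeper upper-layer neuron-like nuclei. No order is read from these shares, because the Dll1 level of radial glia-like nuclei, 17.5 and 10.9 CPM, was above the 3.68 CPM (2.36 to 5.48) and 4.76 CPM (3.35 to 6.57) of upper-layer neuron-like nuclei, with an overlap of intervals in NCKO. The share was 22.9% and 20.8% in ganglionic eminence progenitor-like and 20.8% and 26.0% in oligodendrocyte precursor-like nuclei. Hes1 or Hes5 was seen in 30.6% and 32.5% of radial glia-like nuclei against 1.36% and 1.64% in upper-layer neuron-like nuclei. In oligodendrocyte precursor-like nuclei, which led for both ligands, that share was 15.6% and 21.4%. A receptor UMI was present in 85 of 93 F/F and 135 of 166 NCKO radial glia-like nuclei that had a Hes1 or Hes5 UMI. These shares, 91.4% and 81.3%, lay near the 87.8% and 79.1% of the whole class. Among oligodendrocyte precursor-like nuclei with a target UMI, the receptor share was 46.7% (F/F) and 16.7% (NCKO), against 35.4% and 17.9% of that class. A link of receptor and target within a nucleus was not tested.

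Ligand and target could also be read in the same nucleus. Of the radial glia-like nuclei with a Dll1 or Dll3 UMI, 4 of 14 in F/F and 3 of 15 in NCKO also had a Hes1 or Hes5 UMI. Of those without a ligand UMI the numbers were 89 of 290 and 163 of 496. The exact binomial intervals overlapped in both libraries, and ligand-bearing nuclei were deeper, with medians of 4001.5 and 3074 UMIs against 2544 and 2285.5. In oligodendrocyte precursor-like nuclei 1 of 20 and 8 of 51 ligand-bearing nuclei had a target UMI, against 14 of 76 and 34 of 145 of the others, again with overlapping intervals. At this depth no exclusion of target by ligand within a nucleus was detectable.

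Between the libraries, the receptors of radial glia-like nuclei differed little while Hes1 and Hes5 differed in opposite directions. Differences are given as the log2 of (CPM + 5) in NCKO over (CPM + 5) in F/F, and a gene with at least 50 UMIs in the class is called when it passes 1.5-fold. In radial glia-like nuclei 6 of the 10 genes had at least 50 UMIs, 1 was called higher and 1 lower, against 10.5% of 7514 genes called in either direction, 5.63% higher and 4.86% lower. A count of 2 in 6 rests on too few genes to be set apart from that background.

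Hes1 (chr16:30064384-30067796, plus strand, GRCm38) gave 41 UMIs in F/F and 26 in NCKO radial glia-like nuclei, at 44.9 CPM (32.2 to 60.9) and 18.9 CPM (12.3 to 27.7). The NCKO library was the lower and the intervals did not overlap. The log2 difference was -1.06 and the ratio of levels 0.421 (0.247 to 0.704). Hes5 (chr4:154960923-154962371, plus strand) gave 95 and 219 UMIs, at 104 CPM (84.2 to 127) and 159 CPM (139 to 182). Here the NCKO library was the higher, again without overlap, with a log2 difference of 0.59, just past the mark, and a ratio of 1.53 (1.20 to 1.97). This call was fragile: in 8 of 14 alternatives the Hes5 difference fell short of 1.5-fold, for example at 0.28 with a finer clustering (resolution 2), 0.44 without doublet removal and 0.53 with a pseudocount of 20.

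The share of radial glia-like nuclei with a Hes1 UMI was 11.2% (34 nuclei) in F/F and 4.31% (22 nuclei) in NCKO. After thinning each nucleus to 1000 UMIs it was 3.64% (1.83 to 6.42) of 302 and 1.99% (0.959 to 3.63) of 502 nuclei, which overlap. In upper-layer neuron-like nuclei the thinned share was 0.0680% and 0.113%. The share with a Hes5 UMI was 23.4% and 29.0%, and after thinning 9.27% (6.25 to 13.1) and 13.7% (10.9 to 17.1), which overlap, against 0.204% and 0.283% in upper-layer neuron-like nuclei. Thinning left out 2 F/F and 9 NCKO radial glia-like nuclei.

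The other radial glia-like values lay nearer to each other. The NCKO over F/F ratio was 0.855 (0.695 to 1.05) for Notch1, 0.879 (0.768 to 1.01) for Notch2 and 0.935 (0.763 to 1.15) for Notch3. It was 1.33 (0.842 to 2.13) for Jag1 from 30 and 60 UMIs. Dll1, Dll3, Hes6 and Hey1 had fewer than 50 UMIs, and their ratios of 0.622, 0.474, 0.697 and 1.46 all had intervals that included 1.

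Marker genes of neighbouring states were read in the same nuclei. In radial glia-like nuclei the summed level of the 10 radial glia markers was 4073 CPM in F/F and 4314 CPM in NCKO, with none at 0. The 10 astrocyte markers summed to 1182 and 1275 CPM, 9 of them higher in NCKO and 1 at 0 in F/F. The dividing-cell genes Mki67 and Top2a summed to 350.4 and 296 CPM, and the 7 oligodendrocyte precursor markers to 180 and 141 CPM, 6 of them lower in NCKO. The part of these differences in the Hes values was not tested beyond the clusters below.

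**Figure D2:**
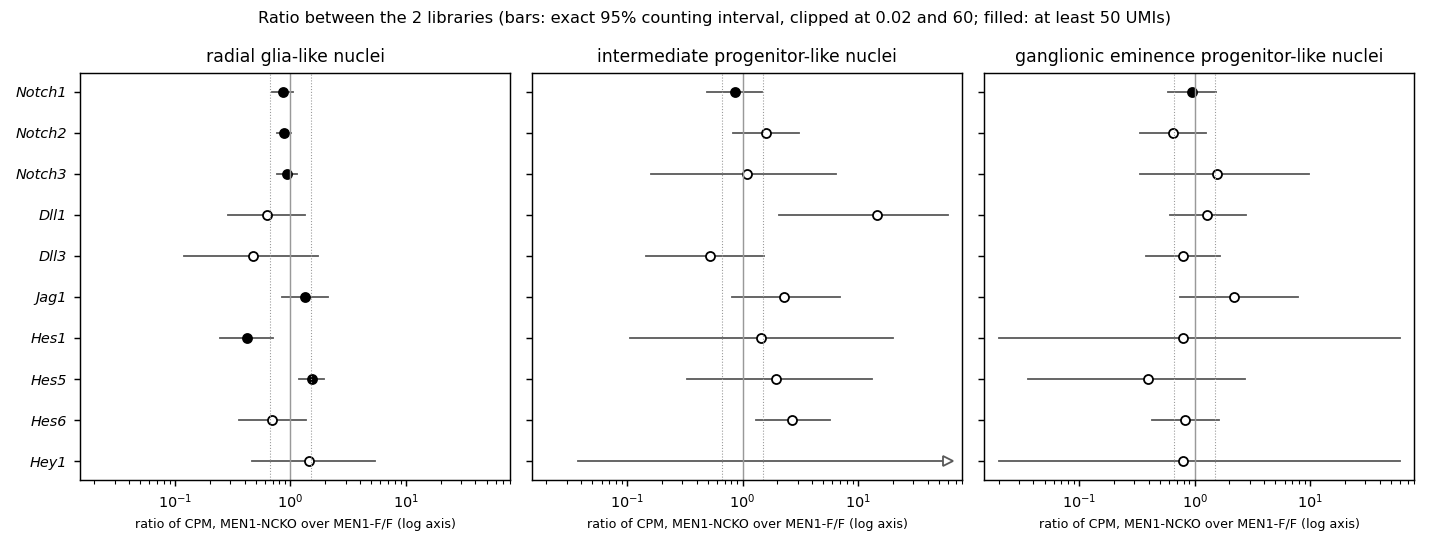
Ratio of CPM, NCKO over F/F (log axis), for the 10 genes in radial glia-like, intermediate progenitor-like and ganglionic eminence progenitor-like nuclei, with exact 95% counting intervals drawn between 0.02 and 60. Filled points have at least 50 UMIs, the open triangle stands for Hey1 with 0 F/F UMIs and the dotted lines mark 1.5-fold; Hes1 at 0.421 and Hes5 at 1.53 are the filled points past them.

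The 3 radial glia-like clusters did not all show the Hes5 difference. Cluster 16, led by cell division genes such as Top2a and Kif11, made up 52.6% of the F/F and 52.8% of the NCKO class, and its Hes5 level was 91.2 CPM in F/F and 175 CPM in NCKO (48 and 140 UMIs, ratio 1.92, 1.37 to 2.72). Cluster 37 had 68.4 and 120.0 CPM (ratio 1.75, 0.905 to 3.53). Cluster 13, whose leading genes include Tnc and Hgf, went the other way at 191 and 149 CPM (ratio 0.780, 0.492 to 1.25), and it was 19.7% of the F/F and 27.6% of the NCKO class. Astrocyte-like nuclei also had less Hes5 in NCKO, 17 UMIs in 30 nuclei against 15 UMIs in 69 (ratio 0.354, 0.165 to 0.753). With astrocyte-like nuclei added to the radial glia-like class the Hes5 difference was 0.38 on the log2 scale and no longer called, and without cluster 16 it was 0.17. The difference between clusters was not tested.

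Hes1 was lower in NCKO in each of the 3 clusters. It stood at 45.6 and 14.99 CPM in cluster 16 (24 and 12 UMIs, ratio 0.329, 0.150 to 0.683) and 41.1 and 8.57 CPM in cluster 37 (9 and 2 UMIs, ratio 0.209, 0.0220 to 1.01). In cluster 13 it stood at 47.7 and 35.0 CPM (8 and 12 UMIs, ratio 0.734, 0.276 to 2.07). The Hes1 direction was therefore shared by the clusters, although the interval excluded 1 in cluster 16 alone. Oligodendrocyte precursor-like nuclei, a separate class with 96 F/F and 196 NCKO nuclei, had 12 Hes1 UMIs in each library (ratio 0.473, 0.194 to 1.15) and 8 and 38 Hes5 UMIs (ratio 2.25, 1.03 to 5.57). Their Notch1 ratio was 0.488 (0.286 to 0.835).

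The clusters also divided the receptors and ligands of radial glia-like nuclei. Notch2 stood at 775 and 674 CPM in cluster 13, 543 and 502 CPM in cluster 37 and 251 and 196 CPM in the dividing cluster 16. Notch1 lay between 149.9 and 201 CPM over the 3 clusters and both libraries. Dll1 was nearly confined to cluster 16, which held 15 of the 16 F/F and 13 of the 15 NCKO radial glia-like UMIs.

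**Figure D3:**
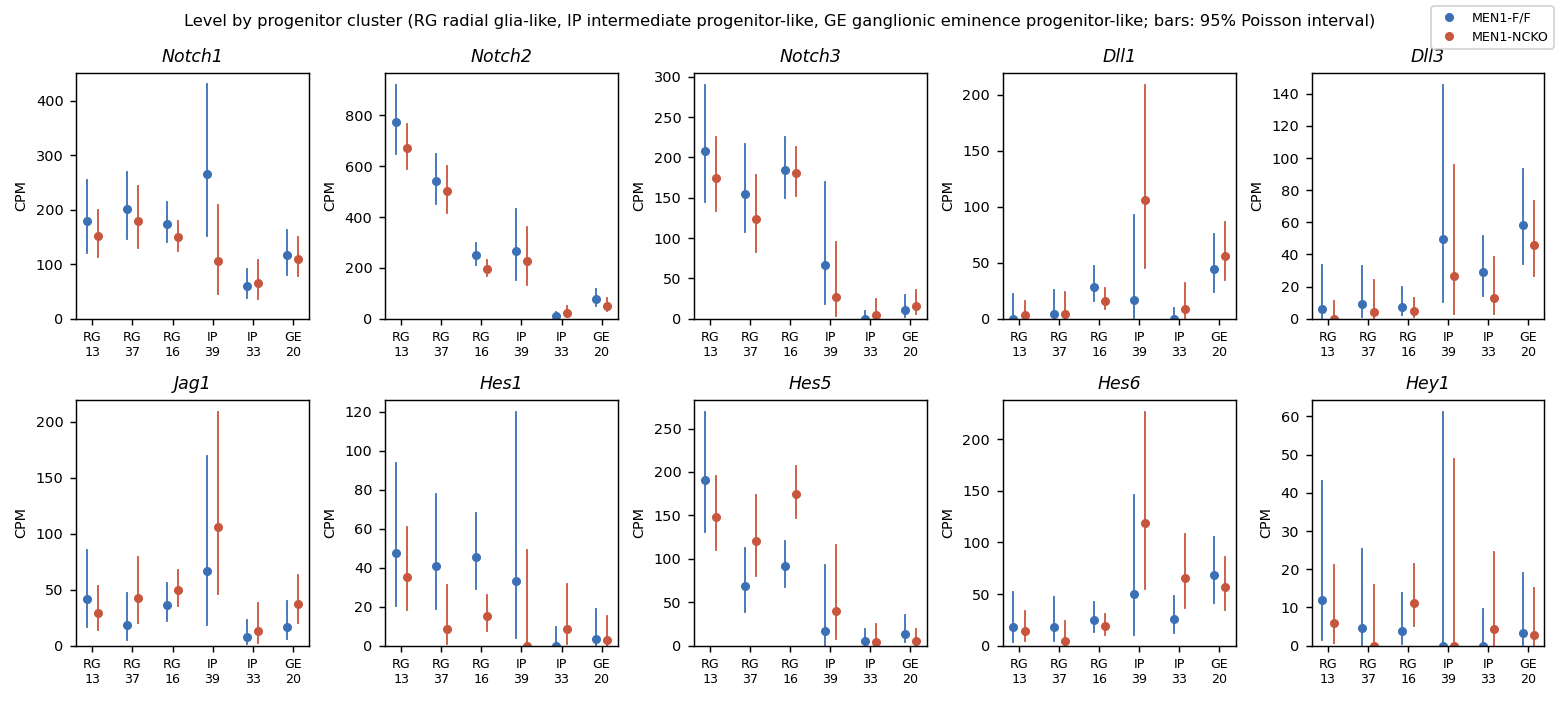
Level in CPM (vertical linear axis) of each gene in the radial glia-like (RG) clusters 13, 37 and 16, the intermediate progenitor-like (IP) clusters 39 and 33 and the ganglionic eminence progenitor-like (GE) cluster 20, F/F in blue and NCKO in red, with 95% Poisson intervals. Hes1 is lower in NCKO in the 3 RG clusters, Hes5 is higher in RG 16 and RG 37 and lower in RG 13, and Notch2 is lower in RG 16 than in RG 13.

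Intermediate progenitor-like nuclei, named from markers such as Eomes, had few UMIs of these genes. Only Notch1 had at least 50, with 39 in F/F and 23 in NCKO (ratio 0.858, 0.489 to 1.47), and 0 of the 10 genes were called, against 16.2% of 3231 genes in either direction. Below that minimum, Hes6 had 13 and 24 UMIs, at 29.4 CPM (15.7 to 50.3) and 79.0 CPM (50.6 to 118), a ratio of 2.68 (1.31 to 5.74). Dll1 had 1 UMI in F/F and 10 in NCKO, at 2.26 and 32.9 CPM, and the ratio of 14.5 had a counting interval of 2.07 to 631. Dll3 had 14 and 5 UMIs (ratio 0.519, 0.146 to 1.53). Both ligands are thus based on counts too small to give their size.

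The pair of clusters behind this class differed in their mix and in their Notch genes. Cluster 39, with Neurog2, Gadd45g, Egfr and Pax6 among its leading genes, was 18.1% of the F/F and 31.3% of the NCKO class, and cluster 33, led by Eomes and Mfap4, made up the rest. Cluster 39 held 8 of the 10 NCKO Dll1 UMIs and had Notch1 at 266 CPM in F/F and 106 CPM in NCKO (16 and 8 UMIs, ratio 0.400, 0.148 to 0.989). Within cluster 33 Hes6 had 10 and 15 UMIs (ratio 2.51, 1.05 to 6.24), and Mki67 and Top2a summed to 13.1 and 39.4 CPM. Over the whole class the same dividing-cell genes summed to 13.6 CPM in F/F and 69.1 CPM in NCKO, and the 6 ganglionic eminence progenitor markers to 24.9 and 75.7 CPM, with 2 of the 6 at 0 in each library. The part of dividing or ganglionic eminence nuclei in the Dll1 and Hes6 values was not tested. The class is also fragile: with the Notch genes left in the clustering a class of 32 F/F and 37 NCKO nuclei took this name.

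Ganglionic eminence progenitor-like nuclei, dividing cells of the ventral forebrain, showed no difference whose interval excluded 1. Their Notch1 counts were 34 and 41 UMIs, Dll1 13 and 21, Dll3 17 and 17, Jag1 5 and 14, and Hes6 20 and 21. Notch1 alone had at least 50 UMIs and was not called, against 14.2% of 3130 genes in either direction. Hes1 had 1 UMI in each library and Hes5 4 and 2, at 13.7 and 5.38 CPM against 104 and 159 CPM in radial glia-like nuclei.

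Outside the progenitors Notch3 was the only one of the 10 genes that was called. In layer 5 neuron-like nuclei it gave 34 F/F and 27 NCKO UMIs, 20.7 and 7.56 CPM, and was lower in NCKO by a log2 difference of -1.03 (ratio 0.366, 0.212 to 0.624), against 5.89% of 9118 genes called in either direction and 2.91% called lower. All of these UMIs were in cluster 10. In interneuron-like nuclei derived from the medial ganglionic eminence (MGE) it gave 10 and 42 UMIs, 4.46 and 11.9 CPM, and was higher in NCKO by 0.84 (ratio 2.67, 1.32 to 5.97), against 5.84% of 9872 genes called in either direction and 3.21% called higher. The 3 clusters of that class had ratios of 1.75, 2.45 and 3.20, each with an interval that included 1. In striatal or LGE-derived neuron-like nuclei Notch3 had 95 and 91 UMIs, 31.9 and 21.9 CPM (ratio 0.687, 0.510 to 0.926), and was not called, against 4.33% of 10589 genes. In the other neuron classes 0 of the 10 genes were called: 4 were measured in upper-layer (background 4.49%), 1 in layer 6 (5.78%), 1 in migrating excitatory (9.52%), and 0 in subplate (8.85%) and CGE-derived interneuron-like nuclei (11.1%). Notch3 (chr17:32120820-32166852, minus strand) overlaps the antisense gene Gm17276, which had 306 and 419 UMIs over all nuclei. The strand setting of the counting is not given, so reads of this pair may not be separated.

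The genes whose levels followed each member most closely were read from 35 class and library points over 13476 candidate genes, by Pearson's r of the log2 levels. The points share libraries and depth and the values are descriptions. Dll1 and Dll3 were each other's neighbours (r = 0.809), and Myt1, a zinc finger factor of neuronal and oligodendrocyte precursors, was closest to Dll3 (0.819). Hes5 was followed by Hepacam (0.918), Tnc (0.894) and Fabp7 (0.890), all genes of radial glia or astrocytes. Hes1 was followed by Tcf7l1 (0.903) and Yap1 (0.901), and Notch2 by Pbxip1 (0.926) and Apoe (0.924). Notch3 was closest to Daam2 (0.906), and Pdgfrb, the pericyte receptor, had an r of 0.845. Notch1 was closest to 0610009E02Rik (0.935), a gene on the opposite strand that overlaps it and had 51 and 67 UMIs in radial glia-like nuclei, so shared reads may enter this value. Hes6 was closest to Ankrd52 (0.854) and Jag1 to Axin2 (0.794), a target of Wnt signalling. Hey1 had too few UMIs for this measure.

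A wider list of 53 genes of the pathway, all in the gene table, covered other ligands and receptors, the proteases that cut Notch, Rbpj and its cofactors, and modifiers. In radial glia-like nuclei 30 had at least 50 UMIs, 2 were called higher and 0 lower, against 5.63% and 4.86% of all genes. Their median log2 difference was 0.06, and that of all 7514 genes 0.01. The called genes were Tle4, a Groucho corepressor that works with Hes proteins, with 84 and 286 UMIs (log2 1.13, ratio 2.26, 1.77 to 2.92), and Bend6, a repressor of Rbpj activity, with 15 and 38 UMIs (log2 0.61, ratio 1.68, 0.903 to 3.29). Tle4 is also a marker of layer 6 neurons, where it stood at 1972 and 1635 CPM against 92.0 and 208 CPM in radial glia-like nuclei. Bend6 was likewise highest in layer 6 neuron-like nuclei, at 208.5 and 240.5 CPM against 16.4 and 27.6 CPM in radial glia-like nuclei. What free RNA from neurons adds to the radial glia-like values of both genes was not tested. Rbpj itself had 108 and 153 UMIs in radial glia-like nuclei (ratio 0.940, 0.730 to 1.21), and Numb, an inhibitor of Notch, 165 and 256 (ratio 1.03, 0.843 to 1.26).

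In intermediate progenitor-like nuclei 21 of the 53 had at least 50 UMIs, 2 were called higher and 0 lower, against 9.38% and 6.84% of 3231 genes, with a median of 0.11 against 0.03. Tle1, another Groucho corepressor, gave 17 and 52 UMIs (log2 2.02, ratio 4.45, 2.53 to 8.20), and Dner, a transmembrane Notch ligand of neurons, 29 and 38 (log2 0.88, ratio 1.91, 1.14 to 3.20). Tle1 was highest in ganglionic eminence progenitor-like nuclei (178 and 175 CPM), whose markers summed to 24.9 and 75.7 CPM in the intermediate progenitor-like class; their part in the Tle1 value was not tested. The 2 higher calls became 0 without cluster 39 and 0 with the Notch genes left in the clustering. In ganglionic eminence progenitor-like nuclei 18 were measured, and Dner (17 and 48 UMIs, log2 1.09) and Tle4 (40 and 81 UMIs, log2 0.65) were higher, against 7.96% of genes called higher and 6.29% lower, with 0 of the list lower. Dner in radial glia-like nuclei, with 150 and 331 UMIs and a log2 difference of 0.54, fell short of the mark.

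Of the 41 genes of the wider list with at least 500 UMIs, 15 had the same highest class in both libraries, and for 4 of these the highest class stood apart from the next in both. Rbpj was highest in microglia or macrophage-like nuclei, at 1488 CPM (1192 to 1836, 87 UMIs) and 2987 CPM (2691 to 3307, 372 UMIs), against 118 and 111 CPM in radial glia-like nuclei. Oligodendrocyte precursor-like nuclei led for the coactivator gene Maml2 (3378 and 3175 CPM, next class 1759 and 1774 CPM in radial glia-like nuclei) and Cajal-Retzius cell-like nuclei for Maml3 (3455 and 2985 CPM). Cbfa2t2 was highest in intermediate progenitor-like nuclei at 854 and 919 CPM, next to 485 and 448 CPM in migrating excitatory neuron-like nuclei. For the other 11 genes the leading interval overlapped the next class in at least 1 library, as for Mib1, the ubiquitin ligase that lets Delta ligands signal, at 168 and 165 CPM in intermediate progenitor-like nuclei. Several of those leads rested on few UMIs, such as 9 and 24 for Adam17, 7 and 12 for Ncstn and 8 and 10 for Neurl1a in microglia or macrophage-like nuclei.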

How the data were processed

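Nuclei from dissected neocortices were profiled with the 10x Genomics 3' version 3 chemistry, per the labels' protocols. The authors deposited raw UMI counts of genes by barcode. Cell Ranger 6.1.0 is named per the file headers, and mm10 and Seurat per the submitters' processing notes. Barcodes with under 500 genes (10 F/F, 19 NCKO) or over 5% mitochondrial UMIs (1 and 0) and the highest doublet scores (336 and 924, by the Scrublet approach) were removed. Nuclei were scaled to 10000 UMIs, and 2000 variable genes without the Notch genes were reduced to 30 components and clustered jointly with Leiden at resolution 1 (scikit-learn 1.9.0, leidenalg 0.10.2, scipy 1.17.1). Clusters were named from fixed marker lists, and 16.8% of F/F and 19.3% of NCKO nuclei stayed unnamed. A cluster needed at least 3 markers raised 1.5-fold.

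UMIs were summed per class and library. Level intervals are exact Poisson, ratio intervals exact conditional binomial and share intervals exact Clopper-Pearson, all at 95%. Calls need 50 UMIs over both libraries and 1.5-fold on log2 of (CPM + 5), in classes of at least 100 nuclei per library; the pseudocount understates the change of low genes. Gene positions are from GENCODE vM21. The 10 genes, the 53 listed genes and the marker lists were chosen with earlier results of these data known. Named genes are the 10, the listed genes called in radial glia-like or intermediate progenitor-like nuclei or leading a class, and the 3 closest by correlation among genes with at least 200 UMIs. Listed genes named for other classes, and the Numb, Rbpj and Dner values in radial glia-like nuclei, were picked after they were seen. A few items that this rule names are not reported here. Only the log2 ratio and the 1.5-fold rule were tried on simulated counts, with 3-fold changes. The clustering, class naming, doublet removal and intervals were not tried in this way. Alternatives are in the closing section.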

Additional observations from a re-analysis of the deposited data

Results flagged for a closer look

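Notch3 stood out because its difference between the libraries had opposite directions in different neuron classes. The log2 difference, NCKO over F/F, was 0.84 in MGE-derived interneuron-like nuclei and -1.03 in layer 5 neuron-like nuclei, from 10 and 42 and from 34 and 27 UMIs. After thinning, the Notch3 shares of the libraries overlapped in both classes, with 0 of 219 F/F and 4 of 566 NCKO layer 5 neuron-like nuclei. The difference between the classes was not tested.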

How the results depend on the processing

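Hes1 stayed lower in NCKO radial glia-like nuclei (log2 -1.41 to -0.73) and Hes5 higher (0.17 to 0.90) under all 14 alternatives run, 5 of which were chosen after the data were seen (reweighted clusters, clusters left out, astrocyte-like nuclei added). Some of the 14 could not change the direction. A minimum of 10 UMIs and the placing of unnamed clusters in their best-scoring class returned the main values, and a pseudocount cannot reverse a ratio. No called value changed sign. Against 1 of the 10 genes called higher in radial glia-like nuclei, 0 were with a pseudocount of 20, centring on the median gene, no doublet removal, resolution 2, F/F cluster weights, astrocyte-like nuclei added, or cluster 16 or 37 left out. Against 1 called lower, 0 were with nuclei thinned to 1000 UMIs or cluster 13 or 16 left out, because Hes1 then had fewer than 50 UMIs. In intermediate progenitor-like nuclei a minimum of 10 UMIs gave 4 higher and 1 lower in place of 0 and 0. The share of all genes called at that minimum is not given, so no result is read from these counts.

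For the wider list in radial glia-like nuclei, 1 in place of 2 was higher with a pseudocount of 20, no doublet removal, the Notch genes left in the clustering or cluster 37 left out. Against 0 lower, 1 was with a minimum of 10 UMIs, thinned nuclei, no doublet removal or resolution 2, and the median moved from 0.06 to -0.0481 without doublet removal. In intermediate progenitor-like nuclei 2 were higher, against 5 with a minimum of 10 UMIs, 1 with thinned nuclei, 1 without doublet removal, 0 with the Notch genes left in the clustering, 1 without cluster 33 and 0 without cluster 39. There 1 in place of 0 was lower with the Notch genes left in the clustering or without cluster 33, and the median moved from 0.11 to -0.0687 and -0.28. The cause was not tested. Shares over all genes under these alternatives are not given, so no result is read from the counts at a minimum of 10 UMIs. Depth limits Dll1, Dll3, Hes6 and Hey1, which stayed under 50 UMIs in radial glia-like and intermediate progenitor-like nuclei. No paired analysis was possible because each label has 1 library.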

Other observations

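Microglia or macrophage-like nuclei, few in number (21 F/F and 46 NCKO), also held the receptor Notch2, at 308 CPM (18 UMIs) in F/F. Choroid plexus or ependymal cell-like nuclei (20 and 33) had Notch2 at 496 CPM (341 to 696) in F/F and 194 CPM (128 to 282) in NCKO, and Notch1 at 180 CPM from 12 F/F UMIs. Their Hes6 level of 90.1 CPM in F/F rested on 6 UMIs.

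In neuron-like classes the wider list gave few calls. Of 38 measured genes in layer 6 neuron-like nuclei 1 was higher and 1 lower. The counts were 0 and 1 of 40 in striatal or LGE-derived and 1 and 0 of 35 in migrating excitatory neuron-like nuclei. They were 3 and 0 of 25 in CGE-derived interneuron-like (background 11.1%) and 1 and 1 of 35 in subplate neuron-like nuclei (8.85%), whose genes are not named. No result about the list is read from these counts. Dlk2, a relative of the Delta ligands, had 46 and 148 UMIs in layer 6 neuron-like nuclei (log2 0.83). Maml3 had 190 and 158 UMIs there (log2 -0.88), against 5.78% of 9951 genes called in either direction. In striatal or LGE-derived neuron-like nuclei Maml2 had 423 and 322 UMIs (log2 -0.83), against 4.33% of 10589 genes called in either direction. In migrating excitatory neuron-like nuclei Ncstn, a subunit of gamma-secretase, had 52 and 133 UMIs (log2 0.75), against 9.52% of 8238 genes called.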
